A study of Rattus norvegicus with 2 samples.

Results

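The miRNAs described here are the mature products of 2 gene clusters, miR-23a/miR-27a/miR-24-2 and miR-23b/miR-27b/miR-24-1, as measured by small RNA sequencing of exosomes from rat cardiomyocytes. They were taken by name from the deposited count table, as every row named miR-23a, miR-23b, miR-24, miR-24-1, miR-24-2, miR-27a or miR-27b, on either arm. The guides are mmu-miR-23a-3p, mmu-miR-23b-3p, mmu-miR-24-3p, mmu-miR-27a-3p and mmu-miR-27b-3p, and as in the table all names are those of mouse miRNAs, although the cells were from rats. The rule gave 11 of the 635 rows, 5 from the 3p arm (the guide strand of these hairpins) and 6 from the 5p arm (the passenger strand). Exosomes came from the medium of primary cardiomyocytes of 1- to 2-day-old Wistar rats, cultured after serum starvation without angiotensin II (Ang II) to give NC-Exo or for 48 h with 1 μmol/L Ang II to give HC-Exo. Cells of both conditions came from hearts digested with collagenase II and trypsin, were enriched by differential adhesion and were plated with bromodeoxyuridine, and no allele was altered in either. There was 1 library per condition, so no difference given here has a replicate check, and every error is a counting error of reads. The comparison addressed how the miRNA cargo of exosomes differed after Ang II-induced hypertrophy.

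The miR-23, miR-27 and miR-24 hairpins lie next to each other and each trio is cut from a shared primary transcript, so that the members of a cluster can be made together. The duplicated clusters give miR-23 and miR-27 in a copies and b copies, while both give the same mature miR-24-3p. A miRNA pairs with its target mRNAs mainly through its seed (bases 2 to 8), so the copies of a family are taken to share most of their targets. In the heart, miR-23a is known as a prohypertrophic miRNA downstream of NFATc3 that represses the ubiquitin ligase MuRF1, and miR-24 as a repressor of the pro-apoptotic protein Bim. In the vessel wall, miR-23 and miR-27 are known to promote angiogenesis, with Sprouty2 and semaphorin 6A among their targets.

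The guide sequences are shown because they define the families and because the a and b copies are nearly alike. They are RefSeq sequences of the rat assembly GRCr8, where 10 of the 11 rows were found by name, and the seed is in capitals.
miR-23a-3p: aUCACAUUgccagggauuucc
miR-23b-3p: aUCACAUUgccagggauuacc
miR-27a-3p: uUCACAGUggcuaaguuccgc
miR-27b-3p: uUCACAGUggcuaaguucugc
miR-24-3p: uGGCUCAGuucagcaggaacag

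Counted from the 5′ end of the a copy, miR-23b-3p differed from miR-23a-3p by U19A, and miR-27b-3p from miR-27a-3p by C19U. Each pair thus had 1 difference, with 2 bases after it, and a read that ends before position 19 fits both copies. The seeds of the miR-23 and miR-27 families began alike, with the run UCACA at bases 2 to 6 in both. That of miR-24-3p did not begin in this way.

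The miR-24 hairpins are shown because their 3p arm cannot be told apart while their 5p arm can. Both are written on the minus strand of GRCr8, with the annotated mature arms in capitals, 5p first.
Mir24-1: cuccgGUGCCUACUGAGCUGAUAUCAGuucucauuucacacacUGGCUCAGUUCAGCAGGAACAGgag
Mir24-2: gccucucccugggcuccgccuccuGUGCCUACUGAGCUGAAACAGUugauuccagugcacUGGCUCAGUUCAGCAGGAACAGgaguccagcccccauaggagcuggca

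The first 16 bases of the 5p arms were the same, and the rest separated miR-24-1-5p from miR-24-2-5p. The order of the hairpins was the same in both clusters, with miR-23 first, miR-27 next and miR-24 last on the minus strand.

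The library of NC-Exo held 102608 miRNA reads and that of HC-Exo 133155, so that 1 read was 9.75 reads per 1000000 miRNA reads (RPM) in the first and 7.51 in the second. Of markers of cardiomyocytes (miR-1a-3p, miR-133a-3p, miR-208a-3p, miR-208b-3p and miR-499-5p), all 5 had reads in both libraries and together held 16.7% and 18.1% of the reads of NC-Exo and HC-Exo. Nearly all of this was miR-1a-3p, with 16614 of the 17107 marker reads in NC-Exo and 23271 of 24090 in HC-Exo. In NC-Exo miR-208a-3p had 9 reads and miR-499-5p had 10. Markers of other cells were also present, with 9.11% and 6.68% for both arms of the endothelial miR-126a, 1.52% and 1.22% for 3 mesenchymal rows, 2.30% and 2.69% for 2 smooth muscle rows and 0.698% and 0.756% for 5 blood miRNAs, of which miR-144-3p had no row in the table. Most of the blood share was miR-486a-5p alone, with 654 of 716 reads in NC-Exo and 875 of 1006 in HC-Exo. Rows within such a sum did not move alike, as miR-126a-5p had a log2 ratio of -0.49 for HC-Exo over NC-Exo and miR-126a-3p of 0.21. Among the mesenchymal rows miR-214-3p had -0.49, whereas miR-199a-5p had 1.26 and miR-199a-3p 0.41. Among the cardiomyocyte rows miR-208b-3p had -0.16, miR-1a-3p 0.11, miR-133a-3p 0.36, miR-208a-3p 1.04 and miR-499-5p 1.43. These levels moved between the libraries together with those below, and their part in the differences was not tested. In exosomes, fewer vesicles of a cell type and less of a miRNA per vesicle cannot be told apart.

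As a group, the clusters held shares of the miRNA reads that did not differ beyond counting error, while their makeup differed. The 11 rows had 12536 reads in NC-Exo, 12.2% of that library (95% Clopper-Pearson interval 12.0 to 12.4%). In HC-Exo they had 16195 reads, also 12.2% (12.0 to 12.3%). The ratio of HC-Exo over NC-Exo for their sum was 0.996 (95% exact interval 0.973 to 1.02). Within this sum, the miR-23-3p family went from 60.7% of the reads on the clusters to 53.3%, miR-24-3p from 35.6% to 41.2%, and the miR-27-3p family from 3.37% to 5.15%. These shares count the near-identical a and b rows separately. With each a and b pair counted once, at its larger row, the clusters held 8.76% of the reads of NC-Exo and 9.005% of those of HC-Exo, a ratio of 1.03 (95% exact interval 0.999 to 1.06). The order of the families then turned, as miR-23-3p went from 45.5% of the reads on the clusters to 38.2%, miR-24-3p from 51.6% to 57.7% and miR-27-3p from 2.48% to 3.63%.

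**Figure D1:**
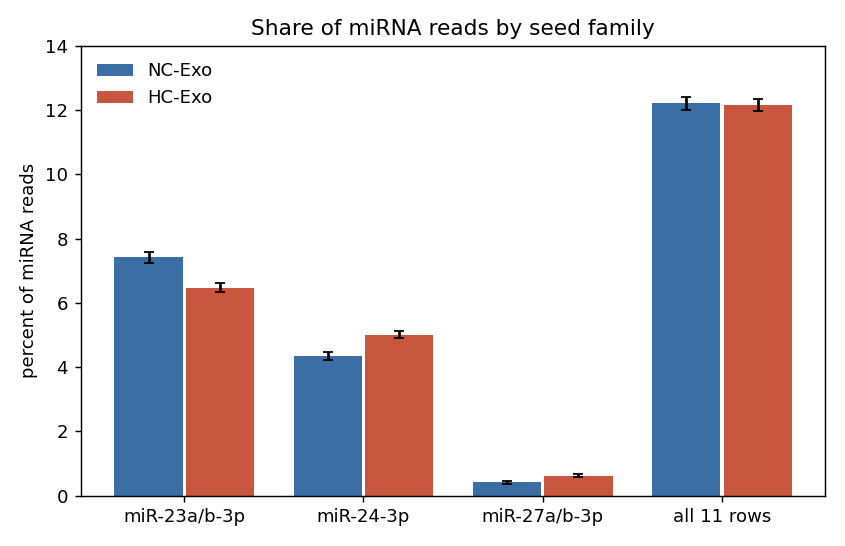
Percent of all miRNA reads (y axis) on the miR-23a/b-3p pair, miR-24-3p, the miR-27a/b-3p pair and all 11 rows, as bars for NC-Exo and HC-Exo with 95% Clopper-Pearson intervals of counting error. The miR-23 bar is lower and the miR-24 and miR-27 bars are higher in HC-Exo, while the bars for all rows are both at 12.2%, with a and b rows counted separately.

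Of the guides, miR-24-3p was the most abundant in both libraries. It had 4466 reads in NC-Exo against 6675 in HC-Exo, which was 4.35% and 5.01% of the reads and rank 5 and 4 of all miRNAs. The next were miR-23a-3p, with 3933 reads (3.83%) and 4418 (3.32%), and miR-23b-3p, with 3677 (3.58%) and 4207 (3.16%). These 3 rows were among the 10 most abundant miRNAs of each library, as miR-23a-3p ranked 7 and 8 and miR-23b-3p 8 and 9.

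The miR-27 guides were far less abundant than their cluster neighbours. The level of miR-27a-3p was 2027 RPM in NC-Exo (95% interval 1761 to 2322) against 3109 RPM in HC-Exo (2817 to 3423), the latter from 414 reads. For miR-27b-3p there were 215 and 420 reads, or 2095 RPM (1825 to 2395) and 3154 RPM (2860 to 3470). The order of the levels was thus miR-24-3p, miR-23a-3p, miR-23b-3p, miR-27b-3p and miR-27a-3p in both libraries. The row counts of the last neighbours in that order, miR-27b-3p and miR-27a-3p, did not differ beyond counting error in either library. Those of miR-23a-3p and miR-23b-3p did, by 1.07-fold in NC-Exo (1.02 to 1.12) against 1.05-fold in HC-Exo (1.01 to 1.10). These intervals take each read to fall on 1 row only. As reads can fit both copies, they do not settle how the copies themselves differ.

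**Figure D2:**
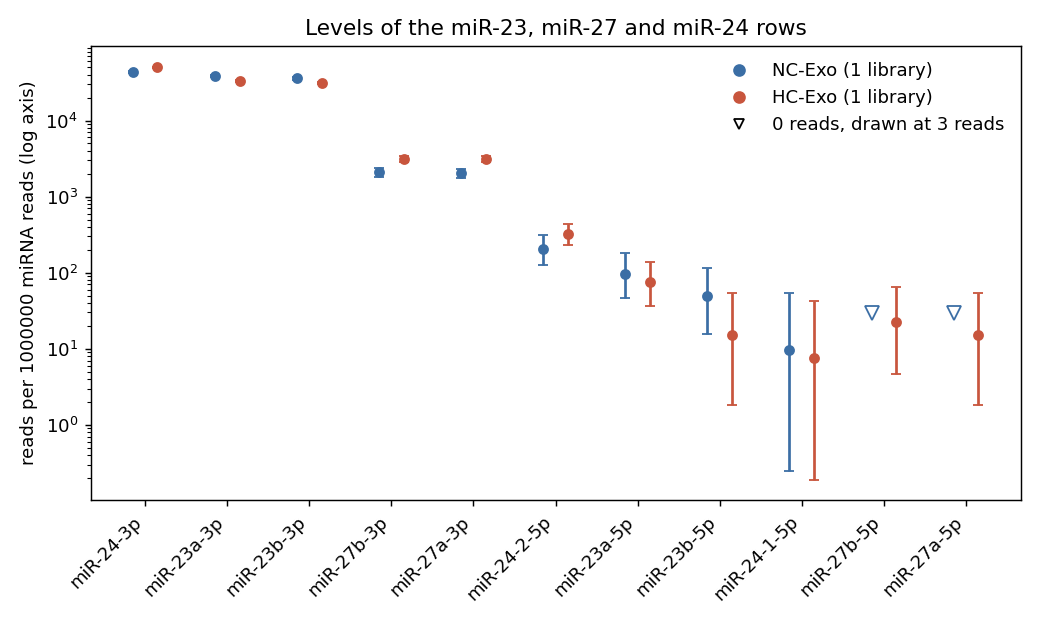
Level of each of the 11 rows in reads per 1000000 miRNA reads (log axis), with points for NC-Exo and HC-Exo and 95% Clopper-Pearson intervals of counting error; open triangles stand for 0 reads and are drawn at 3 reads. The lowest guide (3p) value is 2027 RPM, for miR-27a-3p in NC-Exo, and the highest passenger (5p) value is 323 RPM, for miR-24-2-5p in HC-Exo.

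All 5 guides differed between the libraries beyond counting error, and the families went in different directions. Both miR-23 guides were lower in HC-Exo, and miR-24-3p and both miR-27 guides were higher. A two-sided exact binomial test set the reads of a miRNA in HC-Exo against their sum over the libraries and the library totals. It was run on the 340 miRNAs that had a sum of 10 reads or more, with Benjamini-Hochberg adjustment over all of them. What is tested is thus the difference of a pair of libraries, and not that of the conditions. An adjusted p-value under 0.05 was met by 76 of the 340, or 22.4%, of which 47 were higher in HC-Exo (13.8%) and 29 lower (8.53%). Abundant miRNAs passed more often, as 42 of the 68 miRNAs with a sum of 400 reads or more did (61.8%), 36.8% higher and 25.0% lower. All 5 guides were above that depth, so that 5 of 5 is to be read against this share. The share includes the guides, and the miR-23 and miR-24 guides lay far above 400 reads, where no share was computed. Of the other miRNAs nearest to the guides in level, let-7a-5p, let-7b-5p and miR-133b-3p passed and miR-125a-5p did not. That all guides passed is thus not shown to exceed what their depth gives. As the a and b rows can hold the same reads, the 5 guides are also not 5 independent results. With upper-quartile scaling, which moved every log2 ratio by -0.12, the split over all miRNAs was 24 higher and 38 lower, and with TMM scaling it was 35 and 35.

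The family with the largest ratio was miR-27. The reads of miR-27a-3p had a log2 ratio of 0.62 for HC-Exo over NC-Exo (95% exact interval 0.37 to 0.86, adjusted p = 6.84e-06, exact binomial test), a ratio of 1.53. For miR-27b-3p it was 0.59 (0.35 to 0.83, adjusted p = 1.42e-05, exact binomial test), a ratio of 1.51. The median log2 ratio over all tested miRNAs was 0.10, and both lower bounds were above it.

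For miR-24-3p the difference was smaller but had more reads behind it. Its log2 ratio was 0.20 (0.15 to 0.26, adjusted p = 1.94e-11, exact binomial test), a ratio of 1.15. With upper-quartile scaling it was 0.08 (adjusted p = 0.0269, exact binomial test), on the same side of the threshold.

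The miR-23 guides were lower in HC-Exo by similar amounts. The log2 ratio was -0.21 for miR-23a-3p (-0.27 to -0.15, adjusted p = 2.46e-09, exact binomial test), a ratio of 0.866. It was -0.18 for miR-23b-3p (-0.25 to -0.12, adjusted p = 7.34e-07, exact binomial test), a ratio of 0.882. With upper-quartile scaling these log2 ratios were -0.33 and -0.31. None of the 5 guides reached a log2 ratio of 1 in size, the limit that 16 of the 340 tested miRNAs (4.71%) passed together with the p-value. When a biological coefficient of variation of 0.1 between cultures was assumed, edgeR's exact test called 0 of the 5 guides and 0 of all 340 miRNAs, against 2 guides (miR-27a-3p and miR-27b-3p) and 55 miRNAs at an unadjusted p-value under 0.05.

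**Figure D3:**
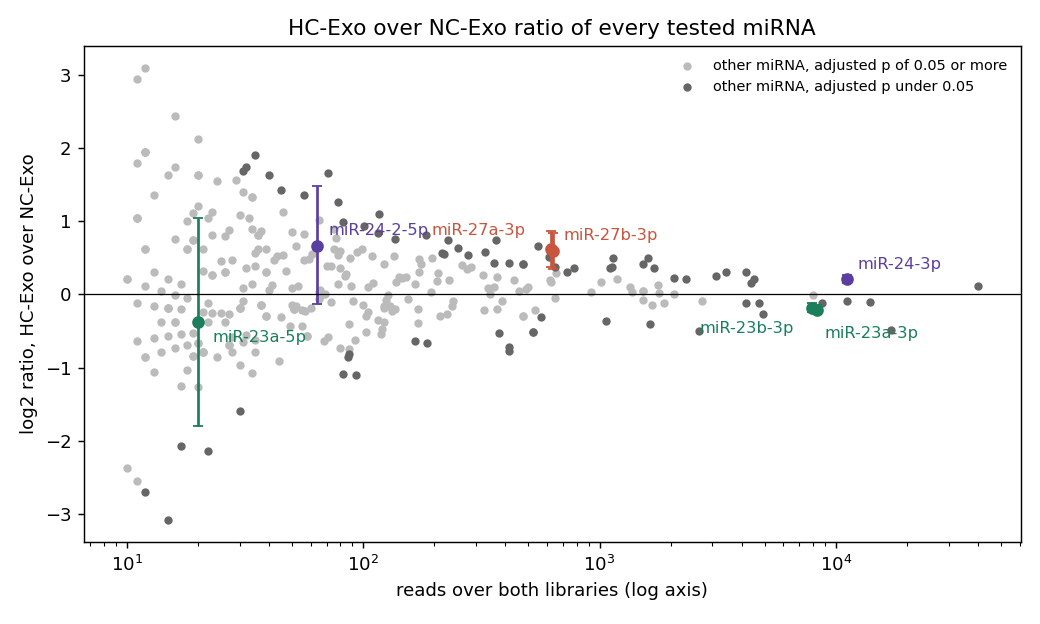
Log2 of HC-Exo over NC-Exo (y axis) against reads over both libraries (x axis, log) for the 340 tested miRNAs, with the clusters' rows in colour and their 95% exact intervals. Both miR-27 guides lie near 0.6, miR-24-3p lies at 0.20, and both miR-23 guides lie below 0 at the right of the plot, where many other abundant miRNAs are past the test as well.

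Within each cluster, the balance of the products therefore differed between the libraries, in the same direction on both. As reads that end before position 19 fit both copies, the a and b rows can hold the same reads. The values of the 2 clusters are thus not independent, and their likeness is no separate result. There were 18.9 reads of miR-23a-3p per read of miR-27a-3p in NC-Exo (95% interval 16.4 to 21.8) against 10.7 in HC-Exo (9.65 to 11.8). On the other cluster there were 17.1 reads of miR-23b-3p per read of miR-27b-3p in NC-Exo (14.9 to 19.7) against 10.0 in HC-Exo (9.06 to 11.1). These intervals cover the counting error of 1 library each, and no share of other miRNA pairs is set beside them. Reads of miR-24-3p per read of miR-23a-3p were 1.14 in NC-Exo (1.09 to 1.19) against 1.51 in HC-Exo (1.45 to 1.57), although miR-24-3p is the product of both clusters. These balances were computed after the ratios had been seen, so they are given without a test.

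The clusters themselves were not told apart. Leaving out miR-24-3p, which both make, the rows of the miR-23a cluster summed to 4172 reads in NC-Exo against 4887 in HC-Exo, and those of the miR-23b cluster to 3898 and 4633. The miR-23a cluster thus had 1.07 times the reads of the miR-23b cluster in NC-Exo, against 1.05 times in HC-Exo. The log2 ratios of HC-Exo over NC-Exo, -0.15 and -0.13, differed by -0.02 (95% interval -0.11 to 0.07, Fisher's exact test, two-sided, unadjusted p = 0.639). Reads that fit both copies can count in both sums, which the test does not allow for. The interval thus covers counting error only and does not bound a difference between the clusters.

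The same held for the a and b copies taken by family. For miR-23 the log2 ratios of the copies differed by -0.03 (-0.12 to 0.06, adjusted p = 1 by Fisher's exact test), and for miR-27 by 0.03 (-0.32 to 0.37, adjusted p = 1 by Fisher's exact test). The adjustment was over all 33 pairs of a and b copies in the table with at least 10 reads for each, of which 3.03% passed. Identical counts in 7 of these pairs meant that they could not pass. Reads counted on both copies of a pair would also draw its difference toward 0. The test thus does not show that the copies behave alike. The copies were also close in level, as the reads of miR-27a-3p over those of miR-27b-3p were 0.967 in NC-Exo (0.796 to 1.18) against 0.986 in HC-Exo (0.859 to 1.13).

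Other pairs of the table were set beside these. In 7 of the 33 pairs, none of them of these clusters, both copies carried identical counts in both libraries. Among the other 26 pairs, ordered by the mean size of log2(a/b) over the libraries, miR-27 was at place 1, with 0.03, and miR-23 at place 3, with 0.08, against a median of 0.78. As the copies differ by 1 base near the 3′ end, and as identical counts elsewhere in the table occur, the levels of the a and b copies are uncertain. How many reads were counted under both names was not tested. The row values do differ, for miR-23 by 256 reads in NC-Exo against 211 in HC-Exo.

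**Figure D4:**
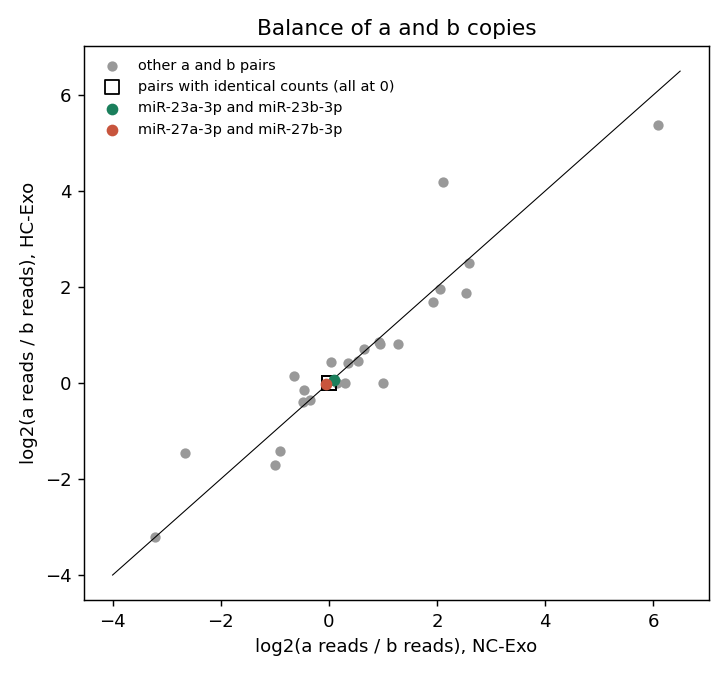
Log2 of the reads of copy a over copy b in NC-Exo (x axis) and in HC-Exo (y axis) for the 33 pairs of a and b copies, with a line where the libraries are equal. The miR-23 and miR-27 pairs lie within 0.1 of 0 on both axes, beside the square that marks the 7 pairs with identical counts, while 11 pairs lie over 1 from 0 on average.

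Apart from miR-24-2-5p, the passenger rows were close to the limit of detection, with at most 10 reads in each library. Together the 6 rows held 37 reads in NC-Exo against 61 in HC-Exo, or 0.295% and 0.377% of the reads on the clusters. Of these rows, 2 had the 10 reads needed for the test, and neither passed it.

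The most abundant passenger was miR-24-2-5p, with 21 reads in NC-Exo against 43 in HC-Exo. Its log2 ratio was 0.66 (-0.13 to 1.48, adjusted p = 0.243, exact binomial test). The 5p arm of the other miR-24 hairpin, miR-24-1-5p, had 1 read in each library. This arm separates the hairpins, and the 95% interval of the reads of miR-24-2-5p per read of miR-24-1-5p was 3.38 to 869 in NC-Exo against 7.32 to 1737 in HC-Exo. The miR-24 passenger reads were thus nearly all on the hairpin of the miR-23a cluster in both libraries, and whether the guide reads are divided in that way cannot be told from these rows.

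For miR-23a-5p, 10 reads were counted in each library, a log2 ratio of -0.38 (-1.80 to 1.05, adjusted p = 0.817, exact binomial test). For miR-23b-5p there were 5 reads in NC-Exo against 2 in HC-Exo, a ratio of 0.308 with an interval of 0.0294 to 1.88, which allows either direction. The miR-27 passengers were at 0 in NC-Exo, whereas in HC-Exo 2 reads were on miR-27a-5p and 3 on miR-27b-5p. A count of 0 allows up to 3 reads, which is 29.2 RPM in NC-Exo, so no difference between the libraries was detectable for them.

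Arm balance, the share of a hairpin's reads on its 5p arm, did not differ between the libraries beyond counting error where it could be tested. For miR-23a it was 0.254% in NC-Exo (95% Clopper-Pearson interval 0.122 to 0.466%) against 0.226% in HC-Exo (0.108 to 0.415%), a log2 difference between the arms of -0.17 (-1.59 to 1.26, adjusted p = 0.959, Fisher's exact test). For miR-24, with the 5p rows of both hairpins added up, it was 0.490% (0.307 to 0.741%) and 0.655% (0.476 to 0.878%), a difference of 0.42 (-0.35 to 1.23, adjusted p = 0.510, Fisher's exact test). The adjustment was over the 65 hairpins of the table with at least 10 reads on the weaker arm, of which 6.15% passed.

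The other hairpins had too few passenger reads for the test. For miR-23b the share was 0.136% in NC-Exo against 0.0475% in HC-Exo. For miR-27a it was 0.481% in HC-Exo and for miR-27b 0.709%, and the 0 reads in NC-Exo allow shares of up to 1.44% and 1.40%. Among 45 hairpins with at least 400 reads over both arms and libraries, ordered from the most one-sided, these stood at places 4 (miR-23b), 9 (miR-23a), 11 (miR-27a), 12 (miR-27b) and 13 (miR-24). In each of them the weaker arm was the 5p arm and held under 0.6% of the reads summed over both libraries.

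A miRNA of another gene, miR-128-3p, has a seed that overlaps that of miR-27, and its sequence is shown for that reason, with bases 2 to 8 in capitals.
miR-128-3p: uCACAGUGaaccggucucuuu

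The run UCACAGUG at bases 2 to 9 of miR-27a-3p was found at bases 1 to 8 of miR-128-3p. The level of miR-128-3p was below that of the miR-27 guides, with 29 reads in NC-Exo against 72 in HC-Exo, and it was also higher in HC-Exo (log2 ratio 0.94, 0.30 to 1.61, adjusted p = 0.0161, exact binomial test). The miRNA miR-3074 is read from the opposite strand at a miR-24 hairpin, and no row of the count table carries its name.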

How the data were processed

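Small RNA of exosomes was sequenced from an Illumina small RNA library for each condition. The authors deposited raw counts of reads per mature miRNA, under mouse names, and these were the input of every test. Bowtie2 and the builds mm9 and GRCm38 are named in the submitters' processing notes. The trimming, the mismatches allowed and the treatment of reads that fit several miRNAs are not given in the sources used here, and the last bears on the a and b copies. The authors also deposited a normalized signal, each count multiplied by 12.1 in NC-Exo or 9.23 in HC-Exo (within 0.5% for all but 1 row), used as an alternative scaling. Their table of fold changes and p-values was not used.

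Counts were divided by library totals. Ratios were tested by exact binomial tests and balances by Fisher's exact tests, in Python 3.11.15 with scipy 1.17.1. The code of the tests was run on simulated reads with large changes that varied by counting error only. This does not show how the tests behave with a spread between cultures or with reads shared between rows. Alternatives used edgeR 4.0.16 and DESeq2 1.42.0 in R 4.3.3. Intervals are 95% exact and, like the floor of 3 reads, cover counting error only, as PCR reads are not independent molecules. Members, lists, tests and the alternatives were chosen with earlier results of these data known. The miRNAs named are all rows of the clusters, the 2 miRNAs nearest in level to each guide, miR-128-3p, miR-3074, the cell type markers, and a cardiac hypertrophy list and an angiogenesis list, given as counts. Sequences are from RefSeq (GRCr8); no coordinates are given, as the authors' builds are of the mouse.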

Additional observations from a re-analysis of the deposited data

How the results depend on the processing

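No paired analysis was possible because each condition has 1 library, which also leaves no replicate to omit. Of 63 log2 ratios of the 5 guides and 2 passengers under alternatives, 53 kept their direction and their side of the threshold or stayed within counting error. These were the ratios under TMM, DESeq2, upper-quartile and top-10-free scaling, the authors' normalized values and pseudocounts of 0.5 and 5 reads, and the passengers under edgeR. Many of these could hardly have come out otherwise. The passengers had not passed the main test, and such pseudocounts are small beside the reads of the guides. The remaining 10 of the 63 were the guides under edgeR's exact test with an assumed biological coefficient of variation. That test allows for a spread between cultures that the binomial test does not. At 0.1 the log2 ratios were -0.21 (miR-23a-3p, adjusted p = 0.680), -0.18 (miR-23b-3p, 0.728), 0.20 (miR-24-3p, 0.688), 0.62 (miR-27a-3p, 0.197) and 0.59 (miR-27b-3p, 0.216), and at 0.2 they were the same with adjusted p-values from edgeR's exact test of 0.959 or more. At 0.1 and at 0.2, 0 miRNAs and 0 guides were called, against 55 and 20 miRNAs at an unadjusted p-value under 0.05. A limit of 1 on the log2 ratio left 16 miRNAs and 0 guides. With no filter 65 miRNAs passed and with at least 50 reads 71, each with all 5 guides. The cluster, copy and arm balances did not change side or move beyond counting error under their alternatives. For the copies and arms the alternative was 0.5 reads added to each count, which could hardly move them. The share of reads on the clusters was 14.6% in NC-Exo against 14.7% in HC-Exo without miR-1a-3p in the total. With each a and b pair counted once, at its larger row, an alternative added once the counts were known, it was 8.76% and 9.005%. Depth limits the passengers, where 1 read is 9.75 or 7.51 RPM.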

Other observations

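By level in both libraries, measured as the distance in log2(RPM) over the 2 libraries among miRNAs with at least 10 reads, the nearest rows to the miR-27 guides were each other (distance 0.05) and the muscle miRNA miR-133b-3p (0.08 from each), with 215 reads in NC-Exo against 397 in HC-Exo. The nearest to miR-23a-3p were let-7a-5p (0.10) and miR-23b-3p (0.12), and miR-23b-3p was followed by miR-125a-5p (0.12). The nearest to miR-24-3p were let-7b-5p (0.21) and let-7a-5p (0.52). With 2 libraries such a distance describes a level and a ratio only.

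Of 26 miRNAs known from cardiac hypertrophy, none of them from these clusters, 25 had the reads for a test, and the exact binomial test called 8 higher and 3 lower in HC-Exo, with a median log2 ratio of 0.26. Of 13 miRNAs known from angiogenesis, all of them tested, 4 were higher and 1 lower, with a median of 0.21. Over all 340 tested miRNAs, 47 were higher and 29 lower, with a median of 0.10. The lists were not matched to this background in depth. Of the 68 miRNAs with at least 400 reads, 61.8% passed the test.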
